A study of Mus musculus with 24 samples.

Results

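The genes described here encode the proteins of the mitochondrial ribosome. Members were chosen by name, as every gene of the count table whose symbol starts with Mrpl or Mrps followed by a digit, and 78 of 17696 genes met that rule. By textbook placement 26 of them belong to the small ribosomal subunit and 51 to the large subunit, and 1, Mrps36, is now known as a subunit of the α-ketoglutarate dehydrogenase complex and not of the ribosome. The study measured mRNA by sequencing in MIN6 cells, an insulin-secreting β cell line that was derived from a mouse insulinoma. Each of 3 stable lines carried a lentiviral vector: a scrambled sequence in the control line (Scr), an antisense sequence against miR-146a-5p in the inhibition line (ZIP), and a miR-146a-5p hairpin in the overexpression line (OE). Each line was sequenced without cytokines and after 24 h in a cytokine mix of TNFα at 10 ng/ml, IFNγ at 100 ng/ml and IL-1β at 5 ng/ml (Scr+Cy, ZIP+Cy and OE+Cy), with 4 libraries in each of the 6 groups. All groups share the MIN6 background and an integrated vector. The lines were grown from single clones that were picked and screened for the miRNA, and the study describes the treated populations as monoclonal. The number of clones used per line is not stated. OE was built in a different vector backbone, with a different fluorescent marker, from the one that Scr and ZIP share, so that clone, vector and miR-146a-5p cannot be told apart in any comparison between lines. The levels of miR-146a-5p itself are not analysed here.

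Mitochondria keep their own ribosome, which translates the few mRNAs encoded by mitochondrial DNA, and these specify core subunits of the respiratory chain and of the ATP synthase. All protein components of that ribosome are nevertheless encoded in the nucleus, made in the cytosol and imported. Some of them descend from bacterial ribosomal proteins, and others were added during the evolution of mitochondria. β cells rely on mitochondrial ATP to couple glucose to insulin release.

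The libraries held between 26657792 and 37168232 reads assigned to genes (median 30701023), and no pair of libraries within a group differed by so little that it could be 1 library deposited a second time. All 12 β cell markers examined were above 1 CPM (the read count scaled to library size) in all 6 groups, and the summed level of those markers ranged from 27170 to 34890 CPM in Scr and from 50570 to 54310 CPM in OE. That sum is mostly Ins2, Iapp and Ins1, and of the 12 markers 7 were higher and 4 lower in OE against Scr, while 0 rose and 10 fell in OE with cytokines. Of 4 markers of other islet cells 2 were higher and 1 lower in OE against Scr: Gcg averaged 288.4 CPM in Scr and 41.4 CPM in OE, Ppy was at 0 CPM in Scr and averaged 8.89 CPM in OE, and Sst averaged 0.083 CPM and 1.34 CPM. A list of RNA quality and stress genes summed to 600.0 to 933.6 CPM in Scr and 1050 to 1758 CPM in ZIP, most of it the nuclear RNA Malat1 (776.6 and 1300 CPM on average), and Hspa1a, a heat shock gene, averaged 11.2 and 27.3 CPM. Nerve markers summed to 47.2 to 74.8 CPM in Scr, 85.0 to 94.7 CPM in OE and at most 146.5 CPM in any library, connective tissue markers to at most 58.7 CPM, and blood, muscle and fat markers to at most 9.70, 0.73 and 0.09 CPM. The part of these shifts in the differences between lines below was not tested. The labels do not say that the 4 libraries of a group came from separate cultures, so a p-value here measures the spread between these libraries, which may be technical.

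All 78 genes were measured in every library, with at least 137 reads for each gene in each library. Their levels over the 24 libraries ranged from 7.63 to 65.3 CPM, with a median of 27.6 CPM, after scaling by the trimmed mean of M-values (TMM). Divided by exon length, to set genes side by side, the levels ran from 3.39 to 83.1 CPM per kb, with a median of 19.2 CPM per kb. The lengths came from GENCODE, an annotation other than the one used for counting. The highest levels per length belonged to Mrps21 (83.1 CPM per kb), a small protein of the small subunit with a bacterial counterpart, and to Mrpl33 (50.6), Mrpl42 (49.7), Mrpl28 (46.1) and Mrpl54 (46.1), all of the large subunit. The lowest were Mrpl47 (3.39), Mrps35 (3.74), Mrps26 (4.80), Mrpl48 (4.96) and Mrps17 (5.09). For Mrps26 the exon length of 4278 bases exceeds the whole gene as counted (chr2:130563757-130565394). The same holds for Mrps17, with 6003 bases (chr5:129715497-129718693). The places of Mrps26 and Mrps17 are therefore not to be read. Mrpl28 and Mrpl54 lay so close together that their order is not to be read.

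Across the 6 groups the levels of most of these genes stayed close together. For the median gene the highest group mean was 1.29 times the lowest, and 12 of 78 genes reached a ratio of 1.5. The highest mean fell in OE+Cy for 30 genes, in OE for 18, in ZIP+Cy for 14, in ZIP for 11, in Scr for 3 and in Scr+Cy for 2. The lowest mean fell in ZIP for 21, in OE+Cy for 18, in Scr for 17, in Scr+Cy for 15, in OE for 5 and in ZIP+Cy for 2. These ratios and counts were not taken over all genes, so nothing particular to the members is read from them. Summed over all 78 genes, untreated Scr cells had 2185 ± 23.3 CPM (SD, n = 4), untreated OE cells 2313 ± 43.6 and untreated ZIP cells 2237 ± 139.5. After cytokines the sums were 2332 ± 113.3 CPM for OE, 2363 ± 136.0 for ZIP and 2208 ± 83.0 for Scr. By library the sums were 2165, 2201, 2165 and 2209 CPM in Scr and 2359, 2306, 2256 and 2330 CPM in OE, so those groups did not overlap, whereas ZIP (2094, 2227, 2198 and 2428 CPM) spanned the whole range of Scr. The sum depended on the scaling: as plain CPM, without TMM, it was 2222 in Scr, 2173 in ZIP, 2331 in OE and 2442 in OE+Cy, and OE (lowest library 2253) then overlapped Scr (highest library 2260). A sum of this kind cannot tell apart more mRNA per cell and a different share of cells.

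**Figure D1:**
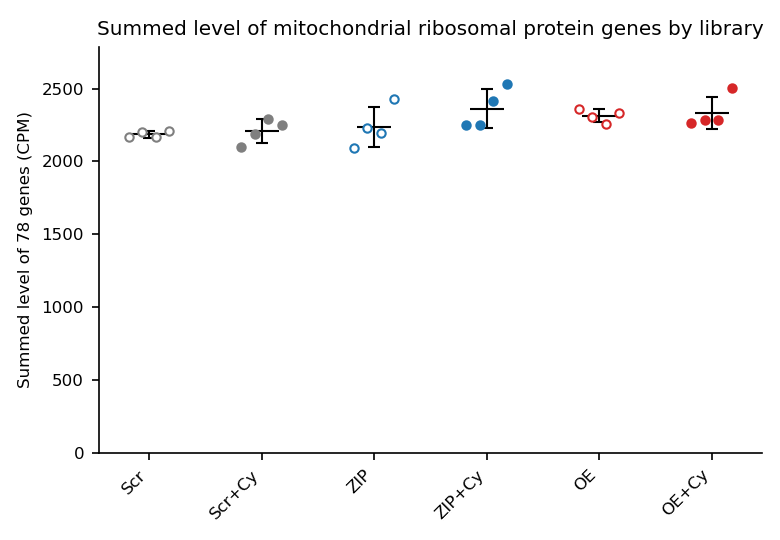
Summed level of the 78 mitochondrial ribosomal protein genes (y axis, CPM after TMM scaling) in each of the 24 libraries, by group (x axis). Points are libraries (open without cytokines, filled with cytokines) and black marks give the mean ± SD (n = 4). The sums lie between 2094 and 2532 CPM, and the 4 OE libraries all lie above the 4 Scr libraries, which they overlap without TMM.

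Because the lines were built to raise or block miR-146a-5p, the sites this miRNA could pair with are shown first. A miRNA recognises mRNAs mainly through its seed, bases 2 to 8, which are in capitals in the mature sequence from RefSeq (GRCm38.p6, chr11:43374435-43374456, - strand) and pair with the letters AGTTCTC in a target.
mmu-miR-146a-5p: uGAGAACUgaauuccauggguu
The longest annotated 3′ UTR of 8 of the 78 genes (10.3%) held a seed match, compared with 12.1% of 15437 genes, and the 3′ UTRs of these genes were short, with a median of 358 bases against 1113 bases over all genes. The 8 were Mrpl10, Mrpl17, Mrpl30, Mrpl48, Mrps17, Mrps30, Mrps35 and Mrps5. As placed in the count table, Mrpl30, Mrps17, Mrps30, Mrps35 and Mrps5 end before their sites. Those sites lie only in the longer annotated 3′ UTR, and whether the measured mRNAs hold them was not tested. The sites of those that changed between lines, and the 1 site extended to 8 letters by an A (Mrps17), read as follows, with the matched letters in capitals (3′ UTR, GRCm38).
Mrpl17 (chr7:105808350-105808376, - strand): gtcatggaaagaAGTTCTCctgaacaa
Mrpl17 (chr7:105804199-105804225, - strand): tgttgttttttgAGTTCTCtgtagcct
Mrpl30 (chr1:37898364-37898390, + strand): atcacttcgttcAGTTCTCtccctttg
Mrps30 (chr13:118378771-118378797, - strand): ccataacttgtcAGTTCTCtcaggaaa
Mrps5 (chr2:127604206-127604232, + strand): ccactcccaggcAGTTCTCccggcagt
Mrps17 (chr5:129721866-129721893, + strand): atattgagccgtAGTTCTCAtggcagtc
The changes of these 8 genes lay on both sides of 0. Against Scr, OE held 2 of them at a higher level, Mrpl30 (0.23 ± 0.08, adjusted p = 0.0293) and Mrps30 (0.21 ± 0.06, adjusted p = 0.00343), and none at a lower level, as log2 fold changes ± SE from edgeR's quasi-likelihood test. Over all genes 24.5% were higher and 25.6% lower in OE at an adjusted p under 0.05. In ZIP, Mrpl17 was higher (0.36 ± 0.08, adjusted p = 0.00112) and Mrps5 was lower (-0.25 ± 0.07, adjusted p = 0.0067), where 13.5% and 14.8% of all genes were. In OE+Cy against Scr+Cy 1 of the 8, Mrps30, was higher and 1, Mrpl17, was lower, where 26.0% and 27.4% of all genes were. Mrps17, with the longest match, did not pass the test in ZIP (-0.12 ± 0.06, adjusted p = 0.167) or in OE (0.10 ± 0.06, adjusted p = 0.159). A match of letters is a description of the sequence and not of binding.

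The first question was how cytokines changed these genes within each line. Throughout, a gene is called changed when the Benjamini-Hochberg adjusted p over all 17696 genes is under 0.05, with no limit on the fold. In Scr cells cytokines raised 5 of the 78 genes and lowered 2, where 10.5% of all genes were called higher and 7.33% lower. The median log2 fold change was 0.01 over the 78 genes and 0.00 over all genes. In ZIP cells 15 rose and 2 fell, where 13.6% of all genes were called higher and 12.8% lower. In OE cells 15 rose and 14 fell, where 23.0% of all genes were called higher and 21.5% lower. As shares of the 78 members, 6.41% rose and 2.56% fell in Scr, 19.2% and 2.56% in ZIP, and 19.2% and 17.9% in OE. Among the 6497 genes whose mean level lay within the members' range the share called in either direction was 21.3% in Scr, 33.7% in ZIP and 54.8% in OE, against 7, 17 and 29 of 78 members.

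The same 4 members rose with cytokines in all 3 lines: Mrpl27, Mrpl1, Mrps34 and Mrpl38, where 7.28% of all genes rose in each line. Mrpl34 and Mrps21 fell in all 3 lines, where 4.45% of all genes did. The 3 comparisons share no library. These 4 are 80.0% of the members that rose in Scr and 26.7% of those that rose in ZIP and in OE, while the 2 that fell are every member that fell in Scr and in ZIP and 14.3% of those that fell in OE.

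Mrpl27 (chr11:94653791-94660087, + strand; coordinates here and below are mm10) is the counterpart of a bacterial large-subunit protein that reaches towards the catalytic centre, where peptide bonds are formed. Its level was 12.5, 12.6, 13.3 and 13.2 CPM in the 4 Scr libraries, and 17.1, 19.1, 22.1 and 17.8 CPM after cytokines. It was 12.3, 12.8, 13.8 and 13.8 CPM in ZIP and 18.5, 18.6, 21.7 and 18.6 CPM in ZIP+Cy. In OE it was 15.1, 14.4, 14.7 and 15.9 CPM, and in OE+Cy 22.9, 26.9, 27.6 and 28.7 CPM. Every treated library lay above every untreated library of its own line, and OE+Cy lay above all other groups. The log2 fold change was 0.56 ± 0.08 (adjusted p = 1.14e-05) in Scr, 0.55 ± 0.08 (adjusted p = 1.17e-05) in ZIP and 0.82 ± 0.08 (adjusted p = 7.99e-09) in OE, the last a fold of 1.77. Of the 78 genes it was the one that cytokines raised most in each line.

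Mrpl1 (chr5:96210115-96266727, + strand) belongs to the mobile stalk of the large subunit, where spent tRNAs leave. Scr libraries gave 28.1, 34.6, 34.8 and 31.96 CPM, and their treated counterparts 36.7, 42.4, 42.00 and 44.1 CPM. The levels were 40.4, 36.2, 40.7 and 37.4 CPM in OE and 54.97, 51.3, 52.04 and 46.2 CPM in OE+Cy, again without overlap. Its log2 fold change with cytokines was 0.35 ± 0.08 (adjusted p = 0.00158) in Scr, 0.47 ± 0.08 (adjusted p = 4.33e-05) in ZIP and 0.40 ± 0.08 (adjusted p = 0.000112) in OE. Mrps34 (chr17:24895120-24896289, + strand), a small-subunit protein with no bacterial counterpart, went from 39.01, 33.1, 32.2 and 29.1 CPM in untreated to 43.2, 44.5, 45.3 and 40.9 CPM in treated Scr cells. It rose by 0.38 ± 0.07 in Scr, 0.37 ± 0.07 in ZIP and 0.26 ± 0.07 in OE on the log2 scale, with adjusted p of 0.000437, 0.000438 and 0.00508. Mrpl38 (chr11:116131817-116138868, - strand), a large-subunit protein found only in mitochondrial ribosomes, made a smaller step of 0.19 ± 0.05 (adjusted p = 0.0149) in Scr, with 32.8, 32.1, 30.6 and 31.1 CPM before and 36.7, 38.1, 36.1 and 33.1 CPM after treatment. That call was lost without Scr+Cy replicate 2 (adjusted p = 0.0642). Mrpl38 was also the only member called higher in all 9 comparisons between groups.

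Of the genes that fell, Mrpl34 (chr8:71464926-71465753, + strand), a very small protein of the large subunit, changed most. Its level was 19.4, 17.5, 19.4 and 17.3 CPM in Scr, and 15.2, 15.8, 14.6 and 13.8 CPM after cytokines. In ZIP it was 19.9, 20.7, 18.5 and 22.2 CPM, and 14.7, 13.9, 13.2 and 15.5 CPM with cytokines. In OE it was 20.5, 17.8, 16.8 and 18.01 CPM, and 14.2, 11.5, 11.8 and 13.97 CPM with cytokines. No treated library reached the lowest untreated library of its line. The log2 fold changes were -0.31 ± 0.08 (adjusted p = 0.00801), -0.50 ± 0.08 (adjusted p = 4.48e-05) and -0.50 ± 0.08 (adjusted p = 1.87e-05) in Scr, ZIP and OE. Mrps21 (chr3:95862634-95871514, - strand), the member with the highest level per length, changed by -0.24 ± 0.07 in Scr, -0.32 ± 0.07 in ZIP and -0.38 ± 0.07 in OE on the log2 scale, with adjusted p of 0.0122, 0.00081 and 4.73e-05. Untreated Scr libraries stood at 44.1, 47.8, 45.1 and 50.5 CPM and treated ones at 40.9, 36.9, 39.3 and 41.7 CPM. The Scr call was lost without Scr+Cy replicate 2 (adjusted p = 0.0531) and without Scr replicate 4 (adjusted p = 0.0522).

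**Figure D2:**
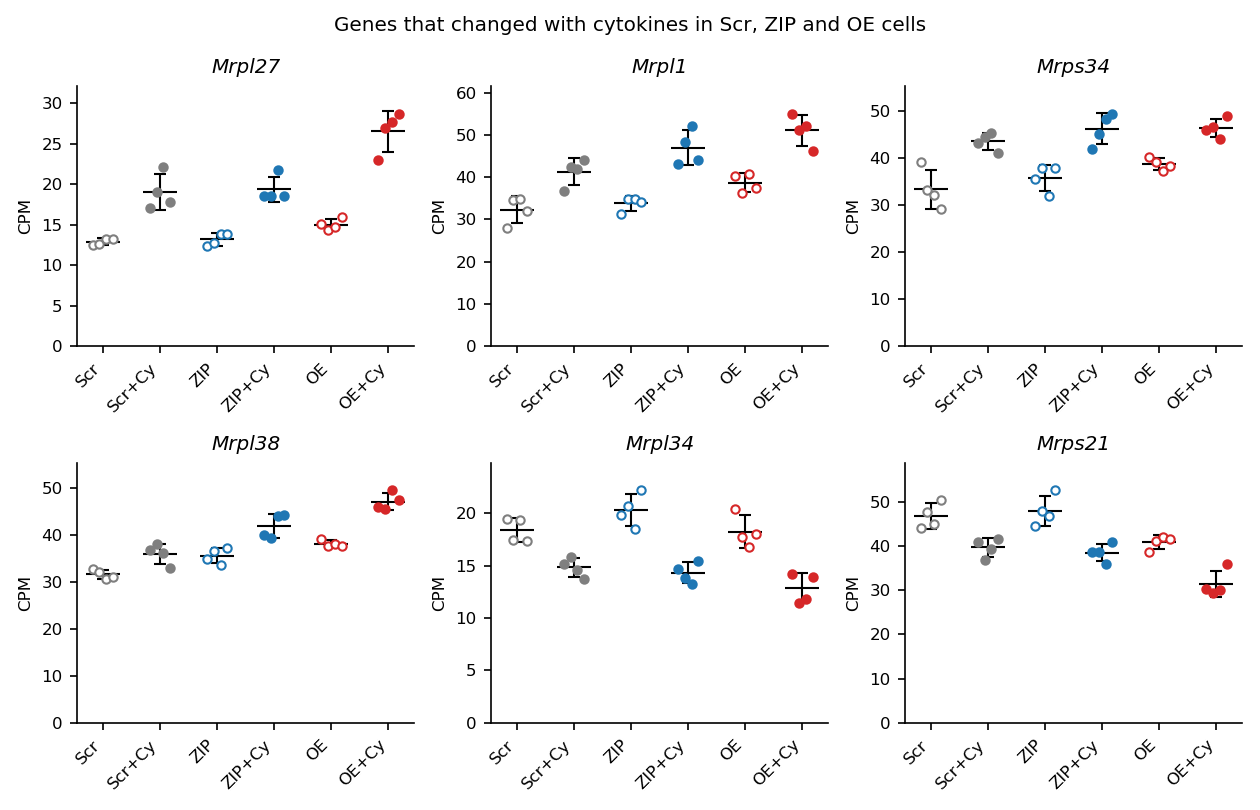
Level (y axis, CPM after TMM scaling) of Mrpl27, Mrpl1, Mrps34, Mrpl38, Mrpl34 and Mrps21 in each library, by group (x axis). Points are libraries (open without cytokines, filled with cytokines) and black marks give the mean ± SD (n = 4). The first 4 genes lie higher and the last 2 lower with cytokines in each line, and Mrpl27 reaches 28.7 CPM in OE+Cy against at most 13.3 CPM in Scr.

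In Scr cells, leaving out Scr+Cy replicate 2 reduced the number of calls from 7 to 4. Libraries that carry the same number deviated together in this comparison, and with the replicate number as a block 11 members were called, 8 higher and 3 lower; the added ones were Mrps25, Mrpl45 and Mrps18b, which were higher, and Mrpl42, which was lower. At a fold of at least 1.5 and an unadjusted p under 0.05, the limits the study set, 0 members passed in Scr (10.6% of all genes did), 0 in ZIP (12.5%) and 1, Mrpl27, in OE (21.0%). Mrpl32, a large-subunit protein whose maturation is a known step in ribosome assembly, rose in ZIP (0.35 ± 0.09, adjusted p = 0.00483), from 17.6, 17.9, 20.7 and 21.00 CPM to 23.5, 21.7, 25.6 and 27.5 CPM. Mrps25, of the small subunit, rose in ZIP (0.39 ± 0.11) and in OE (0.55 ± 0.11, adjusted p = 0.000306), where it went from 36.5, 36.2, 38.5 and 45.1 CPM to 46.3, 51.3, 59.6 and 70.7 CPM. Mrps25 overlaps Nr2c2 on the opposite strand over 3536 bases, and since the use of strand in the counting is not given in the sources used here, reads of the overlap cannot be told apart. The log2 fold change of Nr2c2 in OE with cytokines was -0.01.

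In OE cells 14 members fell with cytokines. Mrps36 fell from 24.5, 22.3, 22.7 and 23.1 CPM in OE to 17.8, 16.5, 16.8 and 18.2 CPM in OE+Cy (-0.42 ± 0.08, adjusted p = 7.11e-05). Mrpl17, a bacterial-type protein of the large subunit, fell from 59.6, 55.9, 51.6 and 52.3 CPM to 48.1, 42.3, 40.5 and 41.2 CPM (-0.35 ± 0.08, adjusted p = 0.000781), and Mrpl42 changed by -0.37 ± 0.10 on the same scale (adjusted p = 0.00323). Among those that rose was Mrpl45 (0.36 ± 0.07, adjusted p = 0.000292), which in mitochondrial ribosomes sits at the mouth of the exit tunnel and anchors the ribosome to the inner membrane. Of the 14 that fell, 6 were small-subunit proteins, 7 large-subunit proteins and 1 Mrps36.

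Whether the cytokine response differed between lines was tested as an interaction. Between ZIP and Scr no member passed (edgeR, where 0.0509% of all genes were called upwards and 0.00565% downwards), with 2 of 78 at an unadjusted p under 0.05 and 0 by DESeq2. With the replicate number as a block 1, Mrpl13, was called (adjusted p = 0.0385). With a median SE of 0.11 on the log2 scale, small differences between the responses would not have been detected. Between OE and Scr 4 members passed, 1 upwards and 3 downwards, where 9.64% and 10.3% of all genes did. With the block 10 passed, 4 upwards and 6 downwards, the added ones being Mrpl24, Mrpl27 and Mrps25 upwards and Mrpl18, Mrpl49 and Mrps6 downwards. With the study's limits 0 members passed in either interaction, where 3.29% of all genes did for ZIP and 12.1% for OE. Mrps36 responded by -0.00 ± 0.08 in Scr and by -0.42 ± 0.08 in OE, a difference of -0.41 ± 0.11 (adjusted p = 0.00739). Mrps12, a core protein of the decoding site, gave a difference of -0.42 ± 0.14 (adjusted p = 0.0383): Scr cells had 31.8, 31.5, 28.8 and 24.9 CPM before and 27.7, 31.4, 33.2 and 31.3 CPM after treatment, and OE cells 32.2, 30.1, 29.7 and 32.9 CPM and 27.4, 22.1, 21.4 and 27.9 CPM. Mrpl17 differed by -0.32 ± 0.11 (adjusted p = 0.0479). Mrpl19 went the other way (0.23 ± 0.07, adjusted p = 0.0206), with 31.4, 30.8, 30.7 and 30.9 CPM in OE and 34.9, 35.1, 37.01 and 38.9 CPM in OE+Cy. Leaving out single libraries removed the calls for Mrps12, Mrpl17 and Mrpl19 but not the call for Mrps36, and the number of calls ranged from 1 to 5.

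The promoters of genes that moved together in all lines are shown with the letters of known motifs. RefSeq promoters (GRCm38.p6, windows of 300 bases, most of them before the start) were matched for 69 of the 78 genes, and none was given for Mrps34 and Mrpl38. The letters TGCGCA, the core of the motif of NRF1, a known activator of nuclear genes for mitochondrial proteins, were found in 21 of 69 promoters (30.4%), against 13.7% of 13884. The ETS motif CCGGAAGT, bound by GABP, another such activator, was in 12 (17.4%, against 7.34%), and the YY1 core ATGGCGGC in 12 (17.4%, against 4.47%). Of the motifs of cytokine signalling, the interferon element GAAANNGAA was in 7 (10.1%, against 8.65%), the STAT element TTCNNNGAA in 6 (8.70%, against 8.36%), and the NF-κB letters GGGANTTTC in 0, against 1.17%. Both strands were searched, each promoter was counted once, and a match is a description and not a bound site. Matched letters are in capitals: an ETS and a YY1 match in Mrpl27, none in Mrpl1, a STAT element in Mrpl34 and an interferon element in Mrps21.
Mrpl27 (chr11:94653541-94653840, + strand): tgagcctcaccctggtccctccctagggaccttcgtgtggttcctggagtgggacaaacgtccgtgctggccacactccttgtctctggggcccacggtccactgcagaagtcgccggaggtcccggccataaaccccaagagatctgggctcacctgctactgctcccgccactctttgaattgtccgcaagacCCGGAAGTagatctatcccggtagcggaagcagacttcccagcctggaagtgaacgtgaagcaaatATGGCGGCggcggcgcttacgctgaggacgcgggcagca
Mrpl1 (chr5:96209865-96210164, + strand): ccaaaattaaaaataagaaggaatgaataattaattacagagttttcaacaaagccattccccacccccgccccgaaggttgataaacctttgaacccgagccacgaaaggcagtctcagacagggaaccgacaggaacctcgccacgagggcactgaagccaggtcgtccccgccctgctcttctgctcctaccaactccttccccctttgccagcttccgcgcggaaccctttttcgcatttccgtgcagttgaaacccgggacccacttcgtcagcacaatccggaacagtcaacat
Mrpl34 (chr8:71464676-71464975, + strand): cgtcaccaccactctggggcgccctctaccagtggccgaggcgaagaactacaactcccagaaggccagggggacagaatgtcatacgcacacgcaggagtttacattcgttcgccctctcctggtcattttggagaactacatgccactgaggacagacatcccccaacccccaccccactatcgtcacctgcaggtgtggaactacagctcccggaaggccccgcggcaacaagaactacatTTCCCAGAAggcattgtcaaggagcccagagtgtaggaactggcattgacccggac
Mrps21 (chr3:95871465-95871764, - strand): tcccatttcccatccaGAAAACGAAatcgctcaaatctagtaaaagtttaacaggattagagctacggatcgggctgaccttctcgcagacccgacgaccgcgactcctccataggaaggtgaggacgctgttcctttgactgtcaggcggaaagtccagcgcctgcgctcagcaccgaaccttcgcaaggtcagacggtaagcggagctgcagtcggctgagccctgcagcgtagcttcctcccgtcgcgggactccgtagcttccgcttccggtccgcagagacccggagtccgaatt
With 4 promoters shown and motifs this common, nothing is read from which of them hold a match. The shorter STAT core TTCNNNGA was in 27 of 69 promoters (39.1%, against 39.6%).

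The second question was how the lines differed without and with cytokines. Between ZIP and Scr 7 members were higher and 4 lower, where 13.5% of all genes were called higher and 14.8% lower. They are 8.97% and 5.13% of the members. With cytokines (ZIP+Cy against Scr+Cy, which use none of the same libraries but the same lines) 10 were higher and 2 lower, where the shares of all genes were 12.9% and 15.1%. With the study's limits 4 members passed without cytokines and 3 with them, where 14.9% and 15.8% of all genes did. The 7 higher in ZIP (Mrpl36, Mrpl3, Mrps22, Mrpl17, Mrpl50, Mrpl38 and Mrps23) were also higher under cytokines, where 9.62% of all genes were higher in both, and Mrps6 and Mrpl43 were lower in both, where 10.7% of all genes were. The median log2 fold change was 0.02 without and 0.06 with cytokines. Without ZIP replicate 4 the calls in the untreated comparison were 5 higher and 5 lower.

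Mrpl36 (chr13:73331009-73332178, + strand), a very small protein of the large subunit, was the member that set ZIP most apart. It measured 18.4, 15.6, 14.1 and 15.3 CPM in Scr, 29.5, 27.4, 30.1 and 28.7 CPM in ZIP and 25.3, 24.9, 26.7 and 25.9 CPM in OE. With cytokines it measured 15.00, 13.5, 13.1 and 14.5 CPM in Scr+Cy, 23.6, 24.7, 29.1 and 27.6 CPM in ZIP+Cy and 23.2, 21.8, 24.03 and 26.1 CPM in OE+Cy. Both ZIP and OE thus lay above Scr without overlap, treated or not. The log2 fold change was 0.87 ± 0.08 (adjusted p = 4.12e-09) for ZIP against Scr and 0.70 ± 0.08 (adjusted p = 4.84e-08) for OE against Scr, which share the Scr libraries, and 0.90 ± 0.08 and 0.76 ± 0.08 under cytokines. The 3 genes above 10 CPM within 0.5 Mb of it, Clptm1l, Lpcat1 and Ndufs6, were all higher as well, by log2 fold changes of 0.91 to 1.37 in ZIP and 0.81 to 1.59 in OE. Ndufs6, a subunit of respiratory complex I whose middle lies 7.42 kb from that of Mrpl36, was higher by 0.91 in ZIP (adjusted p = 3e-10). Among the 25 genes above 10 CPM within 5 Mb the median was 0.02 in ZIP and 0.23 in OE. Some genes farther away had high values too, such as Ice1 (0.85 in ZIP and 0.93 in OE) and Med10 (0.73 and 1.14).

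Mrpl3 and Mrps22 lie on chromosome 9. Mrpl3 (chr9:105053268-105077466, + strand), one of the oldest ribosomal proteins, close to the catalytic centre, measured 24.2, 24.9, 23.4 and 24.8 CPM in Scr and 38.02, 40.5, 35.3 and 42.4 CPM in ZIP. In OE it measured 18.8, 20.5, 19.7 and 21.2 CPM, below all Scr libraries. Its log2 fold change was 0.68 ± 0.07 (adjusted p = 1.99e-08) in ZIP and -0.28 ± 0.07 (adjusted p = 0.00129) in OE. Mrps22 (chr9:98588730-98601679, - strand), a small-subunit protein of mitochondria in which mutations cause mitochondrial disease, measured 11.01, 11.01, 11.03 and 9.66 CPM in Scr and 15.5, 15.3, 16.9 and 17.1 CPM in ZIP (0.60 ± 0.07, adjusted p = 3.89e-07), and 10.2, 10.7, 10.2 and 11.4 CPM in OE. Genes around both also had log2 fold changes above 0 in ZIP, counted without a limit on p. These were 79 of 79 genes above 10 CPM within 5 Mb of Mrpl3, with a median of 0.81, and 36 of 37 around Mrps22, with a median of 0.69, windows that overlap in part. Over all genes 49.8% lay above 0. With cytokines the medians were 0.81 and 0.69 and the counts 78 and 36. In OE the medians were -0.08 and -0.03.

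Mrpl43 (chr19:45005014-45006442, - strand), a large-subunit protein of mitochondria, showed the opposite on chromosome 19. It measured 37.2, 34.01, 35.9 and 38.3 CPM in Scr, 24.8, 27.3, 27.4 and 29.8 CPM in ZIP (-0.41 ± 0.07, adjusted p = 4.07e-05) and 30.2, 31.04, 29.5 and 29.6 CPM in OE (-0.27 ± 0.07, adjusted p = 0.00141). Of 81 genes above 10 CPM within 5 Mb, 7 had a log2 fold change above 0 in ZIP, with a median of -0.43, and 9 in OE, with a median of -0.38. Over all genes 49.8% and 49.4% lay above 0. Mrpl43 overlaps Twnk, the gene of the mitochondrial DNA helicase, over 780 bases on the other strand, and Twnk was lower by 0.28 in both lines. Whether the lines differ in their DNA in these regions was not tested.

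Mrps6 (chr16:92058336-92112227, + strand), the counterpart of a bacterial small-subunit protein, moved in opposite directions in the 2 lines. It measured 9.25, 10.5, 9.60 and 9.76 CPM in Scr, 5.01, 6.05, 5.58 and 7.83 CPM in ZIP and 16.1, 15.9, 15.2 and 17.4 CPM in OE, with no overlap between any of them. The log2 fold change was -0.67 ± 0.11 (adjusted p = 6.71e-05) in ZIP and 0.72 ± 0.11 (adjusted p = 5.08e-06) in OE, and under cytokines -0.50 ± 0.11 (adjusted p = 0.00153) and 0.39 ± 0.11 (adjusted p = 0.00416). Slc5a3, which encodes the inositol transporter, overlaps the span of Mrps6 over 29138 bases on the same strand. That span includes introns, and the exons of Mrps6 hold 846 bases. Shared exon bases were not counted, and reads in them could be split in more than 1 way. Slc5a3 was lower by 0.51 in ZIP (adjusted p = 0.00209) and higher by 0.69 in OE (adjusted p = 2.41e-05). Of all 78 genes, 3 were called in opposite directions in ZIP and OE: Mrps6, Mrpl3 and Mrpl50, a large-subunit protein of mitochondria. The share of all genes called in opposite directions was not counted, so nothing is read from that number. Mrpl50 measured 42.5, 45.2, 42.4 and 46.3 CPM in Scr, 50.2, 53.8, 50.7 and 54.6 CPM in ZIP (0.25 ± 0.05) and 37.9, 38.8, 37.4 and 38.4 CPM in OE (-0.21 ± 0.05).

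Mrpl17, whose 3′ UTR holds a pair of the seed matches printed above, measured 52.7, 55.8, 52.4 and 45.9 CPM in Scr and 62.7, 67.7, 60.5 and 74.1 CPM in ZIP, without overlap. It was higher under cytokines too, at 49.6, 50.4, 51.6 and 50.3 CPM in Scr+Cy against 65.96, 68.1, 57.3 and 76.00 CPM in ZIP+Cy (0.41 ± 0.08, adjusted p = 0.000327). In OE+Cy it was 48.1, 42.3, 40.5 and 41.2 CPM, below Scr+Cy (-0.23 ± 0.08, adjusted p = 0.0177), whereas in OE without cytokines the difference from Scr was 0.09 ± 0.08 (adjusted p = 0.385). Genes above 10 CPM within 5 Mb of Mrpl17 had medians of -0.17 in OE+Cy against Scr+Cy and -0.23 in OE against Scr. Mrps5, with 1 seed match beyond the end of the gene as counted, stood at 25.9, 26.2, 28.4 and 30.7 CPM in Scr and 21.5, 22.8, 24.1 and 25.1 CPM in ZIP.

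**Figure D3:**
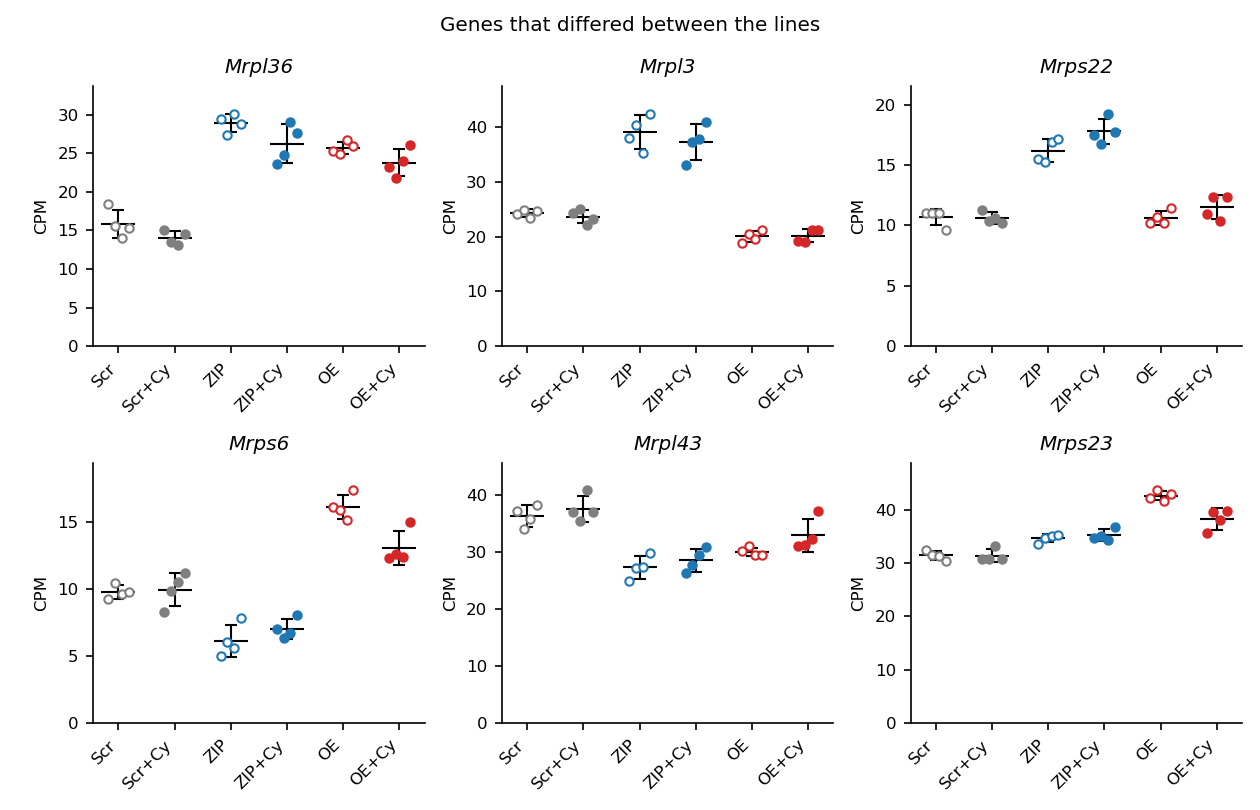
Level (y axis, CPM after TMM scaling) of Mrpl36, Mrpl3, Mrps22, Mrps6, Mrpl43 and Mrps23 in each library, by group (x axis). Points are libraries (open without cytokines, filled with cytokines) and black marks give the mean ± SD (n = 4). Mrpl3 reaches at least 33.1 CPM in every ZIP and ZIP+Cy library and at most 25.0 CPM in Scr and Scr+Cy, and Mrps6 runs from 5.01 CPM in ZIP to 17.4 CPM in OE.

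OE differed from Scr in more members than ZIP did, as it did over all genes. Against Scr 31 members were higher and 7 lower, where 24.5% of all genes were higher and 25.6% lower. Under cytokines 30 were higher and 17 lower against Scr+Cy, where the shares of all genes were 26.0% and 27.4%. The median log2 fold change was 0.09 without and 0.11 with cytokines, against 0.00 and 0.01 over all genes. The members higher in OE were 20 of the 51 large-subunit and 11 of the 26 small-subunit genes. Called in the same direction in both comparisons were 22 higher members, where 15.7% of all genes were, and 7 lower ones, where 18.2% were. The median absolute log2 fold change of the 78 members in OE against Scr was 0.18, and that of the 6497 genes of similar level 0.26. With the study's limits 2 members passed, Mrps6 and Mrpl36, where 25.7% of all genes did, and 1 passed under cytokines, where 28.5% did.

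Mrps23 (chr11:88194106-88211507, + strand), a small-subunit protein of mitochondria, was among the members with the largest differences from Scr. It measured 32.6, 31.6, 31.3 and 30.5 CPM in Scr and 42.3, 43.7, 41.7 and 43.03 CPM in OE (0.44 ± 0.05, adjusted p = 1.45e-08). In ZIP it stood in between, at 33.6, 34.8, 35.05 and 35.3 CPM (0.14 ± 0.05, adjusted p = 0.0221). It fell with cytokines in OE (-0.16 ± 0.05, adjusted p = 0.00663) and remained above Scr+Cy (0.29 ± 0.05). Mrps28 went from 15.7, 15.9, 14.5 and 13.9 CPM in Scr to 20.8, 21.6, 17.9 and 20.1 CPM in OE (0.42 ± 0.08, adjusted p = 8.63e-05). Mrpl54, of the large subunit, measured 27.5, 22.2, 21.2 and 24.7 CPM in Scr and 31.3, 35.97, 29.6 and 28.98 CPM in OE (0.40 ± 0.08, adjusted p = 0.000199), and the difference under cytokines was 0.57 ± 0.08 (adjusted p = 1.94e-06).

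Lower in OE were Mrpl46, Mrps33, Mrpl3, Mrpl43, Mrpl20, Mrps21 and Mrpl50. Mrpl46, of the large subunit, measured 18.6, 19.4, 18.03 and 18.1 CPM in Scr and 16.1, 14.04, 12.99 and 14.1 CPM in OE (-0.37 ± 0.07, adjusted p = 7.5e-05). Mrps33, of the small subunit, measured 38.3, 42.1, 38.3 and 47.04 CPM and 29.4, 31.7, 34.6 and 34.8 CPM (-0.35 ± 0.08, adjusted p = 0.0014). Mrpl20, a bacterial-type protein that in bacteria binds early in the assembly of the large subunit, measured 43.4, 46.5, 42.8 and 42.8 CPM and 38.96, 35.2, 35.3 and 35.7 CPM (-0.27 ± 0.07, adjusted p = 0.0029). These 7 were also lower in OE+Cy than in Scr+Cy. Genes above 10 CPM within 5 Mb had median log2 fold changes in OE of -0.17 around Mrpl46, -0.12 around Mrpl20 and -0.14 around Mrpl50. Around Mrps33 and Mrps21 the medians were 0.11 and 0.08. The part of these regions in the differences was not tested.

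Further differences were called or were larger in value under cytokines. The interaction between OE and Scr given above is also the test of that change. None of the members named in this paragraph passed it, and Mrpl18 and Mrpl24 passed only with the replicate number as a block. Mrps9, close to the decoding site, measured 20.7, 18.97, 21.5 and 20.6 CPM in Scr+Cy and 26.4, 27.9, 27.6 and 31.6 CPM in OE+Cy (0.47 ± 0.07, adjusted p = 2.16e-06), and Mrpl24, one of the first proteins to join the large subunit in bacteria, 26.1, 24.1, 27.4 and 28.2 CPM and 31.6, 34.6, 38.02 and 39.3 CPM (0.44 ± 0.08, adjusted p = 2.96e-05). Mrps11, of the platform that holds the mRNA, was lower in OE+Cy and did not pass in OE (-0.18 ± 0.08, adjusted p = 0.0574), at 25.6, 28.9, 32.1 and 29.7 CPM in Scr+Cy and 25.5, 22.01, 19.5 and 24.9 CPM in OE+Cy (-0.34 ± 0.08, adjusted p = 0.000663). Mrpl18 (-0.32 ± 0.08, adjusted p = 0.00113) and Mrpl41 (-0.29 ± 0.08, adjusted p = 0.00583) were lower too. In the same comparison, genes above 10 CPM within 5 Mb had medians of -0.21 around Mrps11, -0.21 around Mrpl41 and 0.12 around Mrpl18.

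**Figure D4:**
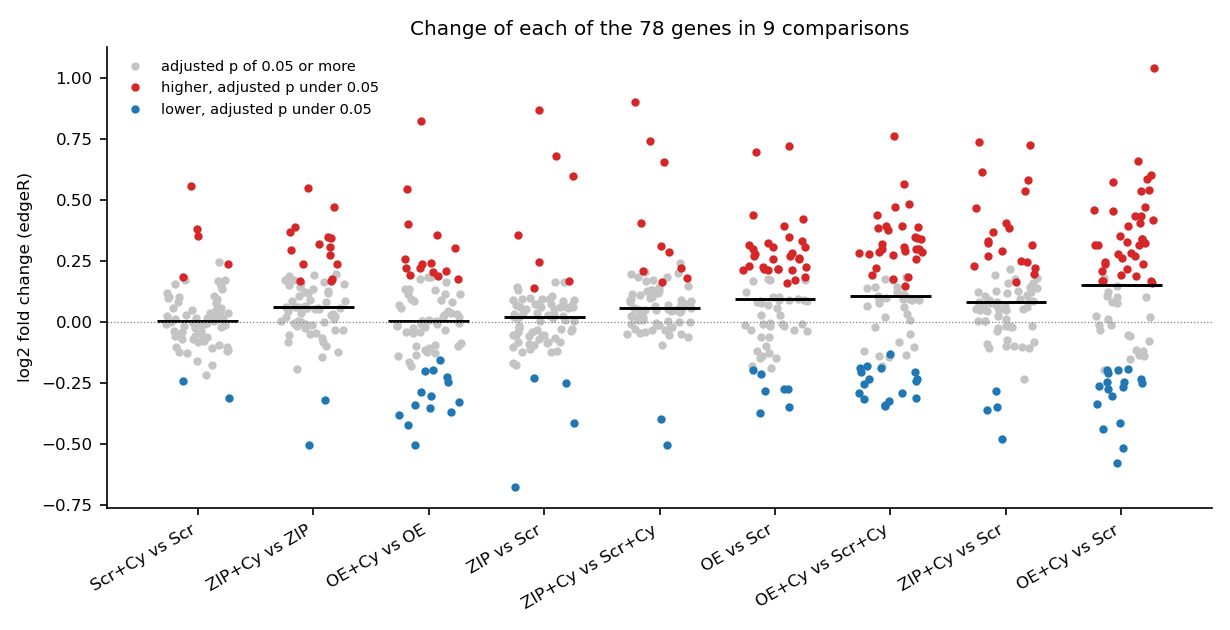
Log2 fold change (y axis) of each of the 78 genes in the 9 comparisons between groups (x axis). Red points are higher and blue points lower at an adjusted p under 0.05, grey points did not pass, and black lines are medians. The medians lie between 0.01 and 0.15, and the numbers of red and blue points are 31 and 7 for OE against Scr and 7 and 4 for ZIP against Scr.

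Treated cells of both modified lines were also set against untreated Scr cells. ZIP+Cy held 20 members at a higher and 4 at a lower level, where 20.4% of all genes were called in each direction. OE+Cy held 38 at a higher and 17 at a lower level, where 30.4% and 29.1% of all genes were called, with a median log2 fold change of 0.15 against 0.04 over all genes. With the study's limits 3 and 4 members passed, where 21.7% and 34.2% of all genes did. Mrpl27 was the member that differed most in OE+Cy, 2.06-fold above Scr (1.04 ± 0.08, adjusted p = 4.86e-11), followed by Mrpl1 (0.66 ± 0.08) and Mrpl54 (0.60 ± 0.08). The lowest against Scr were Mrps21 (-0.58 ± 0.07), Mrpl34 (-0.51 ± 0.08), Mrpl20 (-0.44 ± 0.07), Mrpl28 (-0.41 ± 0.06) and Mrpl33 (-0.33 ± 0.08). These contrasts change line and treatment together.

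Several members carry names that do not give their place. Mrps18a, Mrps18b and Mrps18c descend from 1 bacterial protein, and Mrps18a sits in the large subunit while the other two are in the small one. Mrps18b was higher in OE (27.8, 30.99, 27.7 and 28.3 CPM in Scr and 36.4, 37.3, 34.2 and 36.7 CPM in OE, 0.33 ± 0.06, adjusted p = 0.000138), whereas Mrps18a (-0.00 ± 0.06, adjusted p = 0.979) and Mrps18c (0.09 ± 0.10, adjusted p = 0.478) did not pass. Whether the 3 differ from each other was not tested. Mrps30, a large-subunit protein despite its name, was higher in OE, at 28.2, 27.9, 29.4 and 28.99 CPM in Scr and 31.4, 33.4, 33.1 and 34.8 CPM in OE, and in OE+Cy against Scr+Cy (0.34 ± 0.06, adjusted p = 2.45e-05). Mrpl58, a hydrolase that frees peptides from stalled ribosomes and is also built into the large subunit, was higher in OE (0.28 ± 0.08, adjusted p = 0.00428).

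At the other end, 9 of 78 members were called in none of the 9 comparisons nor in the interactions: Mrpl10, Mrpl14, Mrpl4, Mrpl48, Mrpl51, Mrpl55, Mrps15, Mrps16 and Mrps35. That list depends on the model. With the replicate number as a block in edgeR, Mrpl14 passed in ZIP (adjusted p = 0.0277) and in OE (adjusted p = 0.0415) against Scr. Mrpl51 (adjusted p = 0.0387) and Mrps16 (adjusted p = 0.0471) then passed in OE+Cy against Scr. The share of all genes never called was not counted. Mrpl10 forms the base of the stalk that recruits translation factors. The median SE over all members was near 0.07 on the log2 scale, and a missed threshold does not show that their levels were equal.

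The mitochondrial ribosome also holds proteins without an Mrp symbol, of which 5 were measured. Gadd45gip1, a large-subunit protein that was first described as a nuclear cell-cycle regulator, was lower in ZIP (-0.74 ± 0.07, adjusted p = 3.15e-09) and in OE (-0.77 ± 0.07, adjusted p = 5.31e-10), with means of 68.2 CPM in Scr, 40.7 CPM in ZIP and 40.0 CPM in OE. The genes around Gadd45gip1 were not examined, so a shift of its region was not tested. Dap3, a GTP-binding protein of the small subunit, was higher in OE (0.47 ± 0.05, adjusted p = 1.21e-08) and in ZIP (0.13 ± 0.05, adjusted p = 0.0366), and fell with cytokines in OE (-0.20 ± 0.05, adjusted p = 0.00145). Ptcd3, of the small subunit, was higher in OE (0.21 ± 0.06, adjusted p = 0.00901) and in ZIP (0.19 ± 0.06, adjusted p = 0.025). Aurkaip1 and Chchd1 did not pass in either line against Scr, and Aurkaip1 rose with cytokines in OE (0.14 ± 0.06, adjusted p = 0.0432). Cytokines changed none of the 5 in Scr or in ZIP.

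The lists of factors that build and serve this ribosome are read against the shares of all genes: 24.5% higher and 25.6% lower in OE against Scr, 26.0% and 27.4% in OE+Cy against Scr+Cy, 13.5% and 14.8% in ZIP against Scr, and 23.0% and 21.5% in OE with cytokines. Of 28 assembly factors measured, 8 were higher and 1 lower in OE against Scr, and 15 were higher and 2 lower in OE+Cy against Scr+Cy. Dhx30, an RNA helicase needed for ribosome assembly, was higher in ZIP (0.79 ± 0.06, adjusted p = 7.07e-10), and Fastkd2, which binds the mitochondrial ribosomal RNA, was lower (-0.33 ± 0.06, adjusted p = 0.000171). The genes around Dhx30 were not examined, so a shift of its region was not tested. Nsun4, a methyltransferase of the ribosomal RNA, rose with cytokines in Scr (0.34 ± 0.10, adjusted p = 0.0218), and Mrm3, another, rose in OE (0.42 ± 0.08, adjusted p = 0.000227), where Tfb1m fell (-0.31 ± 0.08, adjusted p = 0.00324). Of 17 translation factors, 8 were higher and 3 lower in OE, and Mrrf, which recycles ribosomes after termination, was lower (-0.51 ± 0.07, adjusted p = 3.97e-06) and rose there with cytokines (0.39 ± 0.08, adjusted p = 0.000167). Lrpprc, which stabilises mitochondrial mRNAs, was lower in ZIP (-0.21 ± 0.05, adjusted p = 0.00189) and fell with cytokines in Scr (-0.18 ± 0.05, adjusted p = 0.00986). Oxa1l, which inserts new proteins into the inner membrane, was higher in ZIP (0.22 ± 0.06, adjusted p = 0.0107). Of the 20 aminoacyl-tRNA synthetases and related enzymes, 5 were higher and 2 lower in OE, and none changed with cytokines in Scr or in ZIP, while 9 rose and 1 fell in OE. Yars2, which charges the tyrosine tRNA, was lower in ZIP (-1.02 ± 0.09, adjusted p = 3.85e-09) and higher in OE (0.49 ± 0.08, adjusted p = 3.06e-05). Nars2, its counterpart for asparagine, was lower in OE (-0.35 ± 0.09, adjusted p = 0.00157).

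Of 15 genes of mitochondrial transcription and replication, 6 were higher and 2 lower in OE (24.5% and 25.6% of all genes), 3 were higher and 3 lower in ZIP (13.5% and 14.8% of all genes), and none changed with cytokines in Scr. Top1mt, the mitochondrial topoisomerase, was lower in OE (-0.60 ± 0.09, adjusted p = 2.16e-06) and in ZIP (-0.31 ± 0.08, adjusted p = 0.00736), and rose with cytokines in OE (0.53 ± 0.09, adjusted p = 1.75e-05). Mterf2 was higher in ZIP (0.43 ± 0.10, adjusted p = 0.00244) and in OE (0.50 ± 0.10, adjusted p = 0.00027). Among 13 regulators of mitochondrial biogenesis, none was higher and 4 were lower in ZIP, while 3 were higher and 2 lower in OE, where the same shares of all genes apply. Pprc1, of this list, and Twnk, of the list before, lie within 5 Mb of Mrpl43. Their log2 fold changes in ZIP were -0.48 and -0.28. Ppargc1a, a coactivator known to drive mitochondrial biogenesis, was higher in OE (0.95 ± 0.15, adjusted p = 1.45e-05). Ppara, a nuclear receptor of fatty acid oxidation, was lower in ZIP (adjusted p = 9.91e-05) and in OE (adjusted p = 1.45e-08) at low levels, with means of 1.61 CPM in Scr, 0.395 CPM in ZIP and 0.0967 CPM in OE. Nfe2l2, a regulator of the oxidative stress response, rose with cytokines in Scr (0.33 ± 0.07, adjusted p = 0.00192), and Ppargc1b, a relative of Ppargc1a, fell (-0.55 ± 0.13, adjusted p = 0.00475). Myc rose with cytokines in OE (1.31 ± 0.20, adjusted p = 7.63e-06), and Nrf1, whose motif was counted above, fell slightly there (-0.19 ± 0.06, adjusted p = 0.0115).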

How the data were processed

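Poly(A) mRNA of 24 libraries (6 groups of 4) was sequenced. Per the labels, the authors' processing tools were FastQC, STAR 2.7.8a, Partek 11.0.24.0204 and DESeq2 with mm10; the study's methods name other versions of STAR and Partek. The authors deposited estimated counts per gene, of which 30.3% were not whole numbers, left after a filter that dropped any gene below 10 reads summed over libraries, and a normalized signal, which equals those counts divided by 1 factor per library (the ratio varied at most 1.009-fold within a library). The method of quantification and its use of strand are not given in the sources used here.

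Estimated counts were rounded and fitted with edgeR 4.0.16 (R 4.3.3): TMM, 6 group means over all 24 libraries, quasi-likelihood test and Benjamini-Hochberg adjustment over 17696 genes in each of 11 comparisons. The script was tested on simulated data. Levels are CPM after TMM. Exon lengths and 3′ UTRs came from GENCODE annotation of GRCm38, and promoters and the miRNA from RefSeq (GRCm38.p6). Alternatives were DESeq2 1.42.0, its size factors in edgeR, filterByExpr, only the compared groups, the replicate number as a block, the study's fold limit of 1.5, and each library left out in turn. The fit without libraries numbered 4 was chosen after the data were seen. Named genes are, per comparison, the 5 largest rises and falls among members that passed without overlap between libraries (for interactions, 3 each way), the 5 highest and lowest levels per length, members whose names do not give their place, and the largest changes of each list. Genes near members (Ndufs6, Twnk, Slc5a3 and others), members with seed sites and genes that overlap members were added after values were seen. The members and lists were chosen with earlier results of these data known.

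Replicate numbers come from the labels. Deviations from the group means over 12670 genes correlated above 0.1 for every number in Scr+Cy against Scr, ZIP+Cy against ZIP, OE+Cy against OE, and ZIP against Scr with and without cytokines, and not in the other comparisons.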

Additional observations from a re-analysis of the deposited data

Results flagged for a closer look

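Among 270 groups of 4 libraries (the levels of 44 named members and the sums over members, in 6 groups), 17 held 1 library far from the other 3, and chance alone gives about 1 in 20. In Scr these were Mrpl18 in replicate 1 (41.5 CPM, others 46.9 to 47.8), Mrpl20 in replicate 2 (46.5, others 42.8 to 43.4) and Mrps22 in replicate 4 (9.66, others 11.01 to 11.03). In ZIP they were Mrps18c (17.4 CPM, others 13.0 to 13.7) and Mrps36 (25.4, others 19.7 to 20.6) in replicate 4 and Mrps9 in replicate 1 (16.8, others 20.1 to 20.7). In OE, replicate 1 stood apart for Mrpl20 (39.0 CPM, others 35.2 to 35.7), Mrps11 (27.02, others 24.2 to 24.5) and Mrps17 (33.7, others 31.6 to 31.9). With cytokines they were Mrps23 in Scr+Cy replicate 3 (33.3 CPM, others 30.8 to 30.9), Mrpl27 in ZIP+Cy replicate 3 (21.7, others 18.5 to 18.6) and Mrps28 in ZIP+Cy replicate 1 (15.4, others 16.1 to 16.2).

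In OE+Cy, replicate 4 stood apart for the sum over all 78 genes (2501 CPM, others 2264 to 2282) and for Mrpl33 (22.3, others 18.9 to 19.4), Mrps21 (35.9, others 29.4 to 30.4) and Mrps6 (15.0, others 12.3 to 12.6), and replicate 2 for Mrpl47 (13.0, others 13.6 to 13.6).

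The cytokine response of 4 members differed between OE and Scr by the interaction test of edgeR, on the log2 scale: Mrpl17 (-0.32, adjusted p = 0.0479), Mrpl19 (0.23, adjusted p = 0.0206), Mrps12 (-0.42, adjusted p = 0.0383) and Mrps36 (-0.41, adjusted p = 0.00739).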

How the results depend on the processing

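With a fold of at least 1.5 and an unadjusted p the members called numbered 4 in ZIP against Scr, 2 in OE against Scr, 0 in Scr+Cy against Scr, 3 in ZIP+Cy against Scr, 4 in OE+Cy against Scr, 0 in ZIP+Cy against ZIP, 1 in OE+Cy against OE, 3 in ZIP+Cy against Scr+Cy, 1 in OE+Cy against Scr+Cy and 0 in the interaction of OE. With the replicate number as a block 11 were called in Scr+Cy against Scr, 1 (Mrpl13) in the interaction of ZIP and 10 in that of OE, and no other count moved by 1.5 times. Without the libraries numbered 4 the interaction of OE held 2. Longer forms of the YY1, interferon and NF-κB motifs matched 5, 3 and 0 promoters. A longer NRF1 motif that need not contain the core TGCGCA matched 13. As plain CPM without TMM the sum in Scr was 2222.

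Leaving out single libraries gave 9 to 12 calls in ZIP against Scr, 33 to 39 in OE against Scr, 4 to 8 in Scr+Cy against Scr, 23 to 25 in ZIP+Cy against Scr, 49 to 52 in OE+Cy against Scr, 12 to 24 in ZIP+Cy against ZIP, 23 to 27 in OE+Cy against OE, 9 to 16 in ZIP+Cy against Scr+Cy, 41 to 46 in OE+Cy against Scr+Cy, 0 in the interaction of ZIP and 1 to 5 in that of OE. Over 81 pairs of a named member and a comparison, none of 1166 alternative fits reversed a sign, and 27 of 680 fits without 1 library lost a call, in 5 pairs: Mrpl38 and Mrps21 in Scr+Cy against Scr, and Mrpl17, Mrpl19 and Mrps12 in the interaction of OE. The cause was not tested. Under the block all 81 kept their call. The pairs had been chosen for large changes in these same libraries, so a reversed sign was unlikely from the start. The lowest count of a member in a library was 137 reads, and counting error and the spread between libraries were not separated by member.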

Other observations

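Of the 78 genes, 12 overlap another listed gene, 9 of them on the other strand and 3 on the same strand, so that reads in the overlap could be split. Shared bases are those of whole gene spans, introns included. Besides Mrps6, Mrpl43 and Mrps25 these include Mrpl49, which shares 89 bases with Syvn1, and Mrpl48, which shares 716 bases with Rab6a. Syvn1 had a log2 fold change of -0.82 with cytokines in OE, and Rab6a of -0.45 in OE against Scr. Taking the longest transcript in place of all exons changed the order of levels per length near both ends, with Mrpl20 at 53.2 CPM per kb rising to the second place after Mrps21.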
